A study of Caenorhabditis elegans with 2 samples.

Results

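The X chromosome regions of UNC-39 were the regions of the pooled ChIP-seq list that lie on chromosome X, 5807 of 30000 regions. They were selected by chromosome only, without use of signal. ChIP-seq sequences the DNA that an antibody pulls down with a protein. Whole worms (Caenorhabditis elegans) were collected as L4 larvae, which moult next into adults, with animals of both sexes pooled. The strain was OP186 (unc-119(ed3) III; wgIs186), in which a transgene makes UNC-39 fused to a GFP-FLAG tag at its C terminus. There was 1 group with 2 biological replicates and no other genotype, treatment or time. Every animal therefore carried both the transgene and the unc-119 allele. The labels give the antibody as "unc-39", and state neither the tagged protein's level nor the cells in which it is made. Whole animals were used, so the cell type behind a region is unknown. Each replicate had its own list, with 5771 X regions in replicate 1 and 5714 in replicate 2 (30000 regions each in all). The 63 optimal peaks are a subset that the authors set by the irreproducible discovery rate, and 21 of them were on X.

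UNC-39 is a homeodomain transcription factor related to the vertebrate factors SIX4 and SIX5, known for roles in muscle and mesoderm development and in cell migration. The X chromosome of C. elegans is present as a pair in hermaphrodites and as a single copy in males. The dosage compensation complex binds both X chromosomes of hermaphrodites and lowers their transcription. It is recruited at sites called rex, many of which carry a G+C-rich sequence known as the MEX motif. This is background on the chromosome, and dosage compensation proteins were not analysed here.

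The sequences of the strongest X regions were of different kinds, and those that carry the results are shown first. The 7-base word GCGCAGG lay within 100 bases of the summit, on either strand, in 10 of the 100 strongest X regions, and within 50 bases in 5. These regions held 12 copies, which are given here from 5′ to 3′ on the strand that reads GCGCAGG, with the word in capitals. Each region is named by its nearest protein-coding gene, and coordinates are those of ce11.
W02H3.3 region, chrX:11094113-11094142, minus strand: gttttatatcGCGCAGGgagcttatgcatg
W02H3.3 region, chrX:11094214-11094243, minus strand: ggaaccattcGCGCAGGgacacctcactgc
F20B6.9 region, chrX:4209254-4209283, minus strand: tgccgctatcGCGCAGGgacacctctttct
xol-1 region, chrX:8036389-8036418, minus strand: attttttatcGCGCAGGgacgtatgtcgac
xol-1 region, chrX:8036425-8036454, plus strand: tttttccatcGCGCAGGgaacccttcgatc
ins-39 region, chrX:1345046-1345075, plus strand: aatgtcattcGCGCAGGgcagctgagccct
F19H6.5 region, chrX:12363027-12363056, minus strand: tgagttatagGCGCAGGgtcttgaggataa
gtr-1 region, chrX:806664-806693, plus strand: tgcgattatcGCGCAGGggtgtttgttgct
nspc-17 region, chrX:14525888-14525917, minus strand: attgcctatcGCGCAGGgacagatgtggta
T27A8.7 region, chrX:16056638-16056667, minus strand: gtggccactcGCGCAGGtagccatcctccc
Y41G9A.17 region, chrX:2997111-2997140, minus strand: taaatttatcGCGCAGGgaggaagtagccc
col-185 region, chrX:13514548-13514577, plus strand: tacctttatcGCGCAGGgatattgaaatct
The capitals mark what was searched for, so they are alike by choice, but the neighbouring bases were not used to find the sites. The word itself was taken from earlier results of these data. Another searched word, CGCGCA, was chosen with those results known and includes the C found before GCGCAGG. The neighbouring bases are therefore no independent support. When the site nearest the summit was taken from each of the 10 regions, 9 had T at 2 bases and 9 had C at 1 base before the word. The base just after the word was G in 9 of 10 sites, and the next base was A in 7 of 10. The commonest bases gave the 12-base consensus TCGCGCAGGGAC, which contains much of the MEX motif. The consensus was drawn up after these sites had been seen.

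Other strong X regions lacked this word. The next sequences are the central 200 bases of 4 regions, from the ce11 reference. Capitals mark GCGCAGG and GAGAGA on either strand, so some capitals read as the reverse complement of a word. The K02D3.1 region is shown as the strongest of all and has neither word, the xol-1 region as one with 2 opposed copies of GCGCAGG, and the spc-1 and ain-1 regions as 2 with GAGAGA.
K02D3.1 region, chrX:13700697-13700896, plus strand: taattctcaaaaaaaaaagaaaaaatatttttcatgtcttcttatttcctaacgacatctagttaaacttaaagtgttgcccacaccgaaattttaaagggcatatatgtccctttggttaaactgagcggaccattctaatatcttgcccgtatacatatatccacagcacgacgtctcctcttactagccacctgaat
xol-1 region, chrX:8036357-8036556, plus strand: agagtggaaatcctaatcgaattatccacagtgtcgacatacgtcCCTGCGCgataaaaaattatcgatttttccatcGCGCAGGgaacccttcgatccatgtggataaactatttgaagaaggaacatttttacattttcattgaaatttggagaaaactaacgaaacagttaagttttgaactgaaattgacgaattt
spc-1 region, chrX:3127769-3127968, plus strand: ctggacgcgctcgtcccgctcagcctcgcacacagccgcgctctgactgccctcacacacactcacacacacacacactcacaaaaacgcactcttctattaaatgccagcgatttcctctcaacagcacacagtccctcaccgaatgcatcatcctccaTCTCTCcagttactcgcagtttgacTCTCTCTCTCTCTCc
ain-1 region, chrX:16612464-16612663, plus strand: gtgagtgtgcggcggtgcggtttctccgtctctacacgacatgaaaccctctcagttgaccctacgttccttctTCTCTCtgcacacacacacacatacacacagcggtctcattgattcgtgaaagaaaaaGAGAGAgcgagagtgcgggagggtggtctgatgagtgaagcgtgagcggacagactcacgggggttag
The xol-1 region ranked 7 on X, the spc-1 region 10 and the ain-1 region 12. None of the 100 strongest X regions held both GCGCAGG and GAGAGA.

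**Figure D1:**
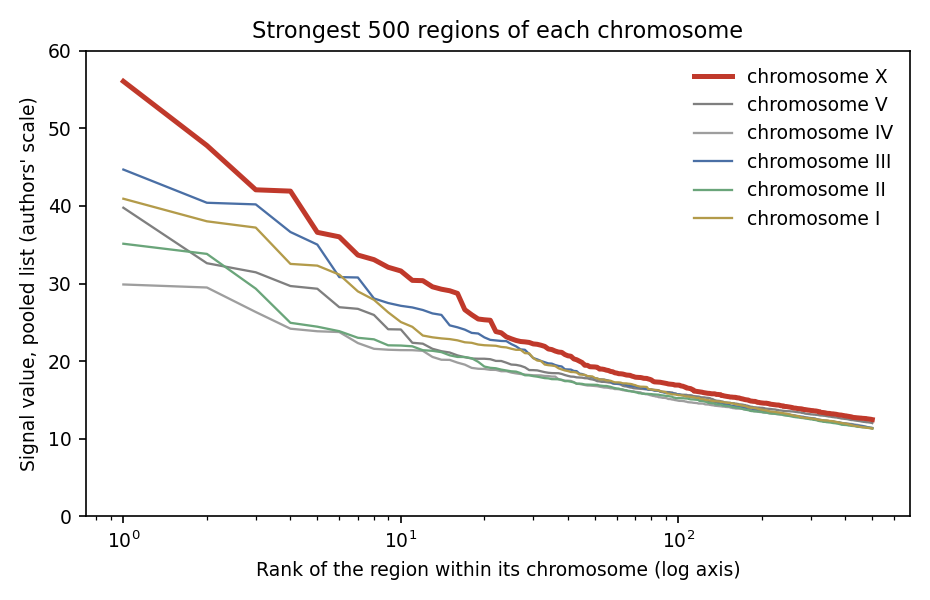
The signal value of each of the 500 strongest pooled regions of a chromosome (vertical axis, authors' scale) is plotted against its rank within that chromosome (horizontal axis, log scale). The X line starts at 56.1 and lies above those of the 5 autosomes over the first ranks, and all lines come close together below a signal value of about 17.

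The signal value of a region was set by the peak caller that the authors ran, on a scale they do not state. It is used to rank regions within a list. The middle of the list differed little between X and the autosomes. The median signal value was 7.67 on X and 7.60 on the autosomes, a log2 ratio of 0.01 (0.02 in replicate 1 and 0.04 in replicate 2). X had the strongest region of the list, at 56.1, and the strongest autosomal region had 44.7. With 2 samples of 1 group no test over samples can be made, so shares are given with exact 95% Clopper-Pearson intervals. These cover counting error over regions only, and read depth is unknown.

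X makes up 17.7% of the 6 nuclear chromosomes and held 19.4% of all pooled regions (18.9 to 19.8). That is 328 regions per megabase on X and 293 on the autosomes. Of the 63 strongest regions, which are the optimal peaks, 21 were on X (33.3%, 22 to 46.3). In replicate 1 alone 21 of the 63 strongest were on X, and in replicate 2 alone 20 were. The X share was 30% of the 100 strongest (21.2 to 40), 22.6% of the 500 strongest (19 to 26.5) and 22.65% of the 2000 strongest (20.8 to 24.5). Set against its own number of regions, X had 21 optimal peaks among 5807 (0.362%) and the autosomes had 42 among 24193 (0.174%), beside 0.21% of all regions. Chromosome III had nearly the same share as X, with 15 of 4206 (0.357%), and IV had the lowest with 3 of 5070 (0.0592%). For the 500 strongest the shares were 1.95% on X and 1.60% on the autosomes, beside 1.67% of all regions, and III had 2.02%. Of the 100 strongest, X had 30 (0.517% of its own regions), and III had 25 (0.594%). X thus led in number. By share of its own regions, III was above X in the pooled list among the 100 and the 500 strongest. Chromosome I equalled X there among the 500 strongest (1.95%). In each replicate alone, X was above both among the 500 strongest. The shares of X, III and I were 2.03%, 1.68% and 1.75% in replicate 1, and 2.08%, 2.03% and 1.60% in replicate 2. Among the 100 strongest, III and I were above X in replicate 1 and below it in replicate 2. The shares of X and III were 0.468% and 0.480% in replicate 1, and 0.473% and 0.462% in replicate 2.

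**Figure D2:**
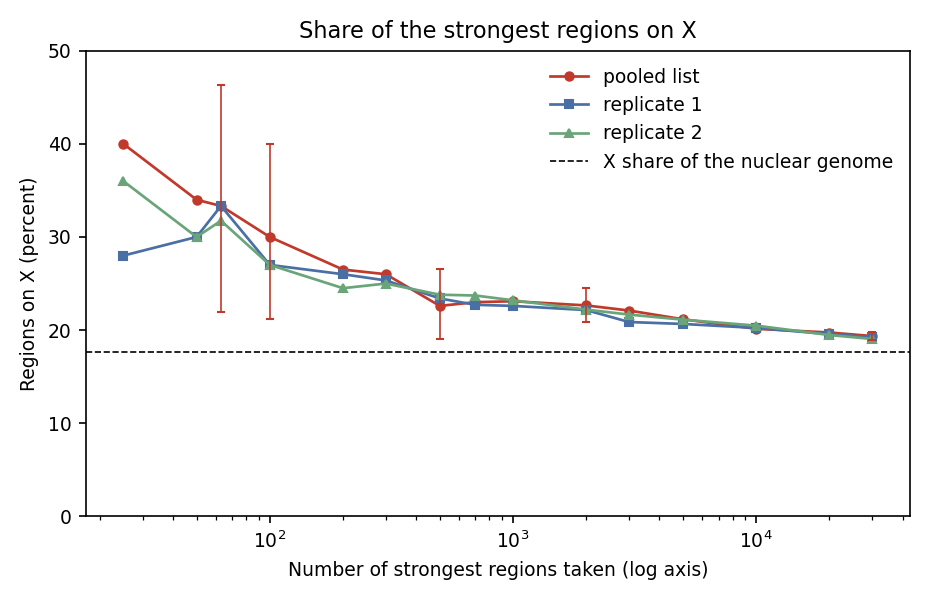
The percentage of regions on X (vertical axis) is plotted against the number of strongest regions taken (horizontal axis, log scale) for the pooled list and each replicate. Bars are exact 95% intervals of the pooled list, and the dashed line is the X share of the nuclear genome, 17.7%. All 3 lines lie above the dashed line and come down towards 19.4%, 19.2% and 19% for whole lists.

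The 25 strongest X regions had signal values from 22.9 to 56.1, which is 2.98 to 7.31 times the X median. The edge of the optimal list fell among them. The last X region inside it, at nspc-17, had 25.3, and the first outside, at F56C3.1, had 23.8. Of these 25 regions, 16 had a protein-coding start no more than 2000 bases away and were assigned to 15 genes. The other 9 are named by the nearest gene alone.

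The 4 strongest X regions all lay between genes. The first spanned chrX:13700596-13700995, 6111 bases upstream of K02D3.1. Its signal value was 33.6 in replicate 1 and 22 in replicate 2, and it ranked 2 of 30000 in both. The second, chrX:9465727-9466126, lay 2582 bases downstream of the start of ZK899.6 and had 25.4 in replicate 1 and 18.8 in replicate 2. The next, 3966 bases downstream of the start of W02H3.3, had 30.3 and rank 3 in replicate 1, and 12.2 and rank 60 in replicate 2. The last of these, 1346 bases downstream of the start of F55G7.5, had 21.5 in replicate 1 and 18.7 in replicate 2. The W02H3.3 region was second on X in replicate 1 and had X rank 19 in replicate 2, and the other regions of this group were among the 6 strongest on X in each replicate. Signal values are set beside each other only within a replicate, since the lists differ in scale.

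The named genes are taken here by their known roles, beginning with those of nerve cells and signalling; this order groups them for reading and rests on no test. The region of ins-39, an insulin-like peptide gene, was 577 bases upstream of the start and had 20.9 in replicate 1 and 8.76 in replicate 2 (X ranks 8 and 97). The gene frpr-7, of the FMRFamide peptide receptor family, had 2 assigned regions, in an intron with 29.6 and in a coding exon 90 bases past the start with 25.4 in the pooled list. A region 2294 bases upstream of olrn-1, which acts in the left-right asymmetry of olfactory neurons, had 26.6. The region 98 bases upstream of unc-115, which encodes an actin-binding protein of axon guidance, had 23.1 in the pool. It was high in replicate 2 only, where it was eighth on X with 15.8, against rank 977 on X with 7.68 in replicate 1. The 2 regions of frpr-7 differed less, with X ranks of 21 and 56 in replicate 1 and 176 and 120 in replicate 2.

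Other nearest genes act on RNA, chromatin or transcription. The region 381 bases upstream of puf-9, which encodes a protein of the Pumilio family that binds RNA, had 17.3 in replicate 1 and 16.3 in replicate 2, and its summit lay in exons of 2 noncoding RNAs, W06B11.7 and W06B11.9. The region 888 bases upstream of ain-1, a GW182-related gene of microRNA silencing, had 15.8 and 17.2 in the same order. Both were among the 26 strongest X regions of each replicate. The region of his-24, a linker histone gene, lay 98 bases upstream and had 14.9 in replicate 1 and 6.64 in replicate 2. A region 2799 bases past the start of mdl-1, which encodes a Mad-like helix-loop-helix factor, had 14.4 and 7.52. These last 2 ranked 34 and 40 on X in replicate 1 but 379 and 222 in replicate 2.

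Genes of the cell cortex and metabolism made up a further group. The region 789 bases upstream of spc-1, alpha spectrin, had 17.2 in replicate 1 and 14.9 in replicate 2 (X ranks 17 and 9). The region 407 bases upstream of epn-1, the worm epsin of endocytosis, had 19.9 and 8.95 (X ranks 10 and 88). The intron region of aak-2, a catalytic subunit of AMP-activated kinase, had 10.6 and 14.7 (X ranks 211 and 11). The spc-1 region was strong in both replicates, the epn-1 region ranked higher in replicate 1 and the aak-2 region higher in replicate 2.

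The other named regions were near serp-1.1 (pooled signal value 29.3), fbxb-58, an F-box gene (29.1), F19H6.5 (28.7), F20B6.9 (36.6) and, beyond 2000 bases, gtr-1 (26, at 3809 bases), F56C3.1 (23.8, at 2257 bases) and xol-1 (33.7, at 4857 bases). The F20B6.9 region stood out by its replicates: it ranked 3 on X in replicate 1, with 30.1, and 215 in replicate 2, with 7.58. The xol-1 region had 20.3 in replicate 1 and 16.8 in replicate 2, and had X ranks 9 and 5 there. The nspc-17 region differed even more than that of F20B6.9, with rank 5 on X in replicate 1 (22) and rank 1800 in replicate 2 (4.30). The F19H6.5 and serp-1.1 regions were close, at ranks 15 and 23 in replicate 1 and 21 and 15 in replicate 2.

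Longer sequence with copies elsewhere in the genome was found near the summit of 1 of the 25. Simple repeats, such as the CA and TC runs shown for the spc-1 region, were not counted by this check. Every 32-base word within 100 bases of the summit was unique in the genome for 24 of them. The exception was the region of rank 6, 5801 bases upstream of F15G9.5, in an intron of the hemicentin gene him-4 and next to the tRNA genes F15G9.t1 and F15G9.t2, where 63.5% were unique and the commonest word had 21 copies. How far repeated sequence bears on its signal value of 36 was not tested.

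**Figure D3:**
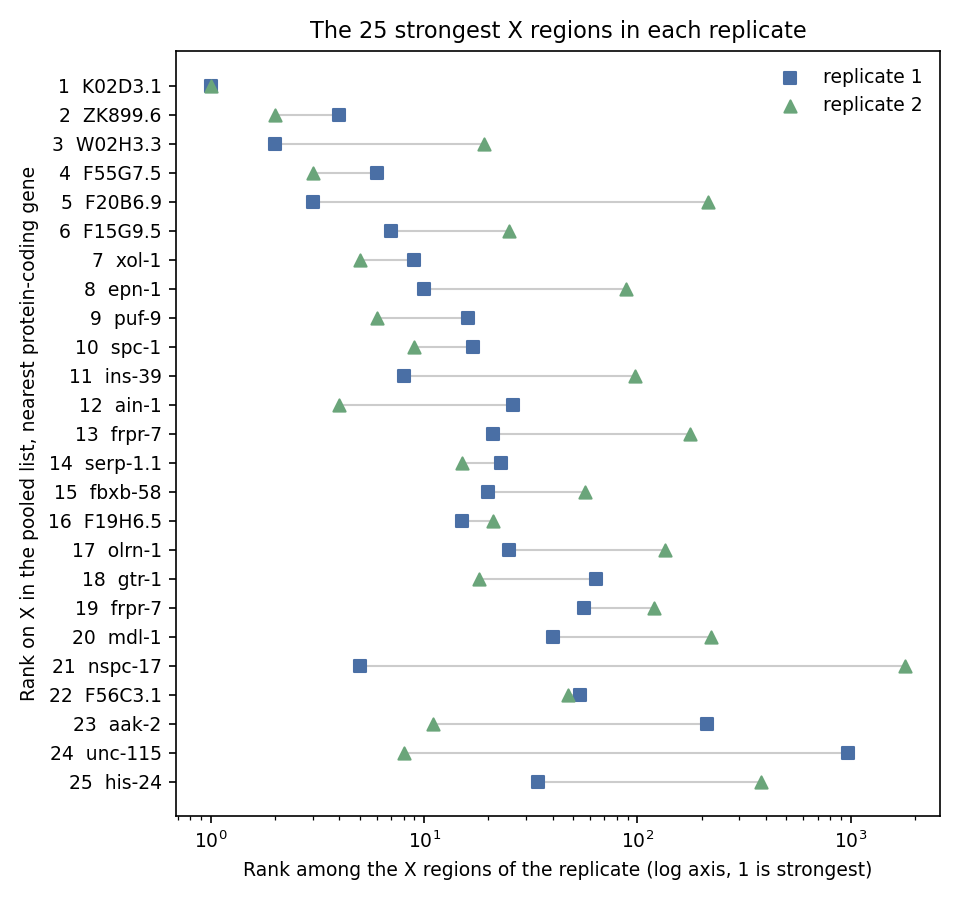
Each row is 1 of the 25 strongest X regions of the pooled list, named by its nearest protein-coding gene, and the horizontal axis (log scale) gives its rank among the X regions of replicate 1 (squares) and replicate 2 (triangles). The K02D3.1 region is first in both, and the nspc-17 and unc-115 rows span the widest ranks, 5 to 1800 and 8 to 977.

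Overlap with any region of each replicate was found for 1801 X regions (31%) and 7419 autosomal regions (30.7%), beside 30.7% of all regions. It was thus alike on X and elsewhere. Regions overlapped by one of the 1000 strongest of both replicates were 53 on X (0.913%) and 95 on the autosomes (0.393%), beside 0.493% of all. Of the 21 optimal peaks on X, all overlapped a region in each replicate, and 20 overlapped one of the 1000 strongest of each. The nspc-17 peak was the exception. Among the 100 strongest X regions, 97 overlapped a region in both replicates, as did 97 of the 100 strongest autosomal regions. The pool is made from both replicates, so this overlap is not independent of the ranks.

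The replicates can also be set against each other without the pooled list. Of the 25 strongest X regions of replicate 1, 10 (40%) overlapped one of the 25 strongest X regions of replicate 2, against 6 of 25 (24%) on the autosomes. For 100 regions the counts were 20 on X and 16 on the autosomes, and for 500 they were 70 and 56. Since the autosomes hold more regions, equal numbers reach less deep there. Across the X regions matched in both replicates, the correlation of signal values was weak, with a Spearman rho of 0.10 over 1801 regions, and 0.08 over 7419 on the autosomes. Both replicates share the labelled possible control, and regions are not independent replicates. The X regions of ranks 7 and 10 in replicate 2, near C30E1.4 and nhr-120, showed how far they could part. The first ranked 1741 on X in replicate 1, and the second overlapped no region there; both were picked after their ranks had been seen.

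The share of X regions with GCGCAGG came down steeply with rank. It was 7 of the 25 strongest (28%, 12.1 to 49.4), 3 of the next 75 (4%) and 7 of the next 400 (1.75%). Among the next 1500, to rank 2000, it was 0.60%, and among the remaining 3807 X regions 0.60% as well. On the autosomes the same ranks gave 2 of 25 (8%, 0.98 to 26), 1 of 75 (1.33%), 3 of 400 (0.75%), 0.60% and 0.38%. Over all regions the word was in 49 on X (0.844%) and in 99 on the autosomes (0.409%). The intervals for the 25 strongest overlap, so 25 regions each cannot tell these shares apart. At equal strength, 10 of the 100 strongest X regions had the word (10%, 4.90 to 17.6), against 5 of the 292 autosomal regions with a signal value at least that of the 100th X region (1.71%, 0.56 to 3.95). The word was taken from earlier results of these data, so these shares describe it and are no independent support.

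The 7-base word alone was about as common per megabase on X as elsewhere. It occurred 357 times on X (20.1 per megabase) and 1642 times on the autosomes (19.9 per megabase). A pooled region held 67 of those on X (18.8%) and 194 of those on the autosomes (11.8%), where regions cover 12.6% of X and 11.3% of the autosomes. Longer matches were mostly on X. The 12-base consensus occurred 6 times on X, 5 of them in a pooled region and 4 in an optimal peak, and 0 times on the autosomes. Its first 10 bases occurred 19 times on X, with 12 in a pooled region and 8 in an optimal peak. On the autosomes they occurred 6 times, with 0 in a pooled region. The consensus was drawn from 10 word sites on X, so the counts describe the sequence and are no independent support.

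The word sites differed in how close they came to the consensus. Within 100 bases of the summit, the W02H3.3, F20B6.9, xol-1 and nspc-17 regions matched it in full, ins-39 and gtr-1 had 2 mismatches at best and F19H6.5 had 3. The 2 strongest X regions had no near match, with 5 mismatches at best for K02D3.1 and 4 for ZK899.6. F55G7.5, of rank 4, had 1 mismatch when the whole 400-base region was searched and 4 near its summit. The copy nearest the summit in the W02H3.3 region had its centre 10 bases away, and that of the gtr-1 region 90 bases away.

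Regions with the 2 words differed in median G+C content, and their other counts are small. The 10 with GCGCAGG had a G+C content between 29.25% and 38% (median 34.75%). None was nearer than 500 bases to a protein-coding start, 8 were intergenic, and 7 were optimal peaks. Of all the 100 strongest X regions, 23 lay within 500 bases of such a start, 50 were intergenic and 21 were optimal peaks. With only 10 regions, these shares are uncertain. The 28 with GAGAGA had a median G+C content of 46%, and 8 of them lay within 500 bases of a start. Of these 28, 14 were intergenic and 5 were optimal peaks. The 62 with neither word had a median of 39.4%, and 15 lay within 500 bases. Of these 62, 28 were intergenic and 9 were optimal peaks. The regions with GCGCAGG had a median X rank of 10 in replicate 1 and 57 in replicate 2, against 108.5 and 88 for those with GAGAGA. Beyond the 25 strongest, the word occurred in the regions near T27A8.7 (X rank 38), Y41G9A.17 (54) and the collagen gene col-185 (68).

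GAGAGA and CACACA were also more frequent in strong X regions, as they were on the autosomes. GAGAGA was in 28% of the 100 strongest X regions (19.5 to 37.9) and in 12.4% of all X regions, against 45% (35 to 55.3) and 13.2% on the autosomes. CACACA was in 30% and 11.5% on X, against 33% and 9.80% on the autosomes. TGATAC or TGACAC, short forms of sites described for vertebrate SIX4 and its relatives, were in 15% of the 100 strongest X regions and 15.7% of all X regions, against 21% and 14.1% on the autosomes. TAATTA, a common homeodomain core, was in 6% and 9.82% on X, against 3% and 8.30% on the autosomes. CGCGCA overlaps GCGCAGG by 5 bases and was in 18% and 3.41% on X, against 14% and 3.03% on the autosomes. At equal strength, the shares on X and in the 292 autosomal regions were 28% and 33.6% for GAGAGA, 30% and 23.6% for CACACA, 15% and 17.8% for TGATAC or TGACAC, 6% and 7.19% for TAATTA, and 18% and 8.90% for CGCGCA. For CACACA, for TAATTA and for TGATAC or TGACAC the order of X and the autosomes thus turned with the set taken. Either strand counted, up to 100 bases from the summit, and a match says only that these letters are there.

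**Figure D4:**
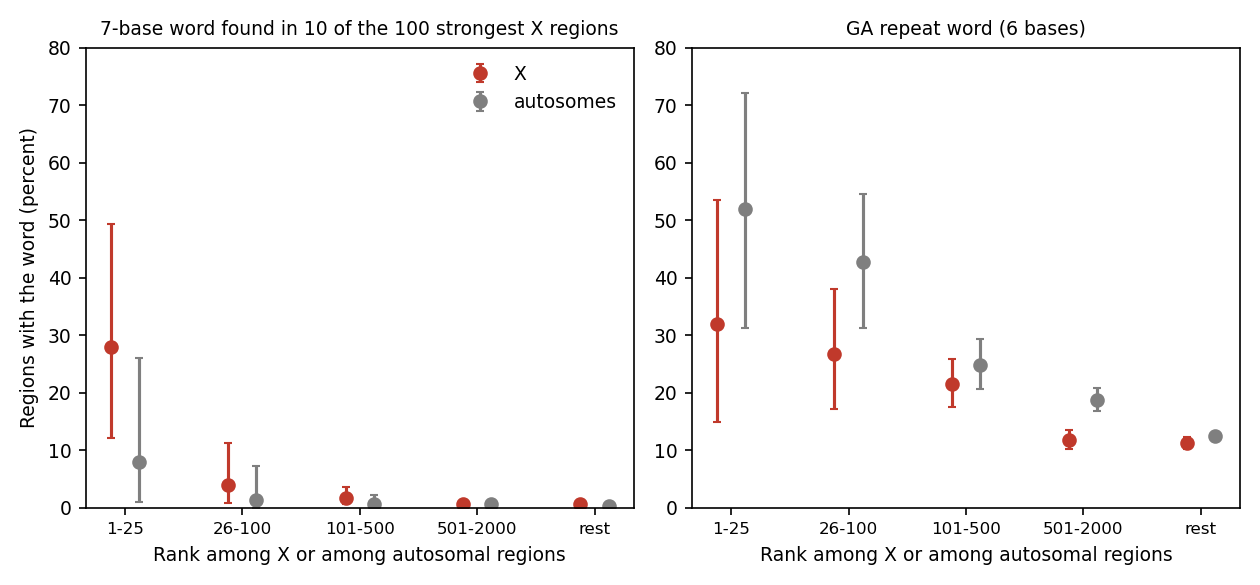
The percentage of regions with each of 2 words within 100 bases of the summit (vertical axes) is plotted by rank bin among X regions (red) or autosomal regions (grey), with exact 95% intervals. The 7-base word is in 28% of the 25 strongest X regions and in 8% of the 25 strongest autosomal ones, and the GA repeat word in 32% and 52%.

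The optimal peaks on X lay mostly between genes. Their summit was intergenic in 16 of 21 (76.2%, 52.8 to 91.8), in an intron in 2, in an exon of a noncoding transcript or gene in 2 and in a coding exon in 1. For the 100 strongest X regions the intergenic share was 50% (39.8 to 60.2) and for all X regions 40.4% (39.1 to 41.7). The autosomes had 43% among the 100 strongest and 31.6% overall. Coding exons held 11% of the 100 strongest X regions and 19% of all X regions, against 4% and 26.4% on the autosomes. The 100 strongest autosomal regions are stronger than those of X, with signal values from 20.7 up where X starts at 16.9. Among the 292 autosomal regions at least as strong as the 100th X region, 38% were intergenic (32.4 to 43.9) and 14.4% lay in coding exons (10.6 to 18.9). X was higher in the first and lower in the second, but the intervals overlap for both (5.62 to 18.8 for coding exons on X). For coding exons this order is the reverse of that between the 100 strongest of each. With replicate 2 alone, 38% of the 100 strongest X regions were intergenic, below the share of all X regions in the pooled list.

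Strong X regions lay about as far from protein-coding starts as X regions in general. Of the 100 strongest, 23 were no more than 500 bases from the start of a protein-coding gene (23%, 15.2 to 32.5), and of all X regions 21.6% did. The autosomes had 33% (23.9 to 43.1) among the 100 strongest and 26.9% overall. The median distance to the nearest start was 1586.5 bases for the 100 strongest X regions and 1461 bases for all X regions, against 866.5 and 1156 bases on the autosomes. The summit lay upstream of that start in 63% of the 100 strongest X regions and 49.4% of all X regions, against 69% and 45% on the autosomes. Starts of all annotated genes, noncoding ones included, were within 500 bases of 45% of the 100 strongest X regions (35 to 55.3) and of 34.1% of all X regions. The median G+C content was 40.4% in the 100 strongest X regions and 35.75% in all X regions, against 42.75% and 36% on the autosomes. The 292 autosomal regions of equal strength gave 31.5% within 500 bases of a protein-coding start, a median distance of 942.5 bases, 57.5% upstream and a median G+C content of 40.1%. At equal strength the X regions were thus farther from a start but no longer lower in the upstream share or in G+C content.

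**Figure D5:**
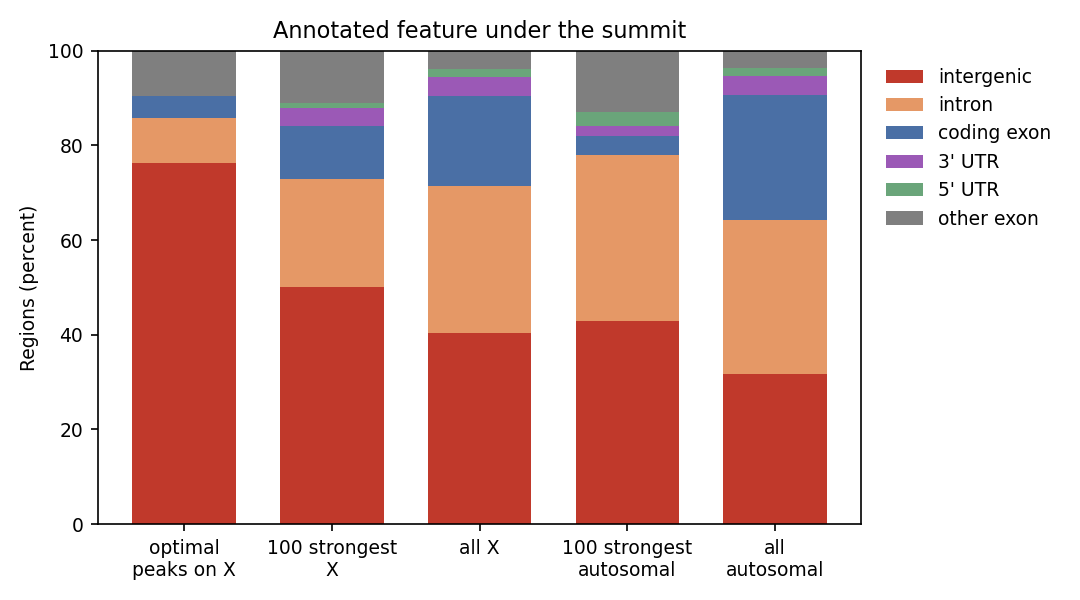
Stacked bars give the percentage of regions whose summit lies in each annotated feature (vertical axis, 0 to 100) for 5 sets of regions, from left to right the optimal peaks on X, the 100 strongest X regions, all X regions, the 100 strongest autosomal regions and all autosomal regions. The intergenic share is 76.2%, 50%, 40.4%, 43% and 31.6% in that order.

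Regions were spread along all of X. The count of all X regions per megabase ran between 243, in the first, and 376, in the twelfth. The 100 strongest were 28, 29 and 43 when the chromosome was cut into left, middle and right parts of equal length (43% in the right part, 33.1 to 53.3), where all X regions had 30.3%, 36.3% and 33.5%. Among the 500 strongest the parts held 26.8%, 37.2% and 36%, so the right part did not lead there. The interval counts neighbouring and overlapping regions as separate. The megabase from 16 to 17 held 11, and the last bin, which is only 0.719 megabases long, held 9. The longest stretch of X without a region was 81.7 kb, chrX:214183-295889. Neighbours overlapped in 9.65% of pairs on X and 8.81% on the autosomes. Between neighbours that did not overlap or touch, the median gap was 2003 bases on X and 2147 bases on the autosomes.

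Of the 100 strongest X regions, 48 lay in 20 groups in which neighbouring summits were at most 20000 bases apart. Overlapping neighbours made up part of this: 5 of the 100 overlapped a stronger one, such as the region of rank 37 near K02D3.1, which overlapped that of rank 1 and matched the same region in each replicate. The largest group had 5 members within 29.9 kb, chrX:16785859-16815729, near T01C8.2, aak-2 and cas-1, with X ranks 23, 30, 33, 49 and 61. The frpr-7 group had 3 members within 10.8 kb (ranks 13, 19 and 45). A region of the RNA-binding protein gene puf-9 (rank 9) and one of hbl-1 (rank 43) lay 18910 bases apart.

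Assigned by a start within 2000 bases, X regions reached 1920 of the 2731 protein-coding genes on X (70.3%), the 500 strongest reached 260 (9.52%), and the 100 strongest reached 50 (1.83%). The counts for gene groups are read beside these shares, and each group is small. Of 6 genes that count X chromosomes or start dosage compensation, 5 had a region and 3 one among the 500 strongest. These were sdc-2, which brings the dosage compensation complex to X (X rank 312, 797 bases upstream), fox-1, an RNA-binding X signal element (376), and sex-1, a nuclear receptor X signal element (388). Their replicate ranks on X ran between 125, for sex-1 in replicate 2, and 2806, for sdc-2 in replicate 2. For xol-1, the switch gene that sets male fate, no summit lay within 2000 bases of a start, and the strong region described above was 4857 bases upstream.

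Of the heterochronic genes, which time larval stages, both protein-coding members on X had a region among the 500 strongest. The region of hbl-1, a Hunchback-like zinc finger gene, ranked 43 on X in the pool, 181 in replicate 1 and 275 in replicate 2. The lin-14 start had a region at rank 106, and an intron region of lin-14, 6986 bases upstream of its nearest annotated start, ranked 28. The microRNA gene let-7 had a region at rank 698, and mir-84 had none within 500 bases.

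Nuclear receptor genes had 8 of 23 members with a region among the 500 strongest (34.8%), beside 9.52% of all protein-coding genes on X, and 0 among the 100 strongest. Their 4 highest by assigned region were nhr-48 (X rank 127), nhr-28 (158), nhr-91 (246) and nhr-40 (294). These were seldom high in both replicates: nhr-48 ranked 5618 on X in replicate 1 and 28 in replicate 2, and nhr-40 ranked 51 and 1597. A stronger region nearest nhr-40, at X rank 47, lay 2019 bases upstream, just beyond the distance for assignment. The region of X rank 93 had its summit in introns of gei-3 and nhr-27, and its nearest start was that of gei-3. Neuropeptide and insulin-like genes had 4 of 34 (11.8%), namely ins-39 (rank 11), flp-32 (163), nlp-57 (212) and nlp-14 (275). The list of neuronal genes, in which lin-15B was also counted, had 3 of 17 (17.6%): unc-115 (24), the synaptic RIM gene unc-10 (96) and mec-7, the beta-tubulin of touch neurons (348). These last 2 groups were near the background share or small.

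The remaining 5 groups each had a share among the 500 strongest below 9.52%, but those of homeobox and of muscle and mesoderm genes were near it. These groups are small, so no shortfall is read from the counts. Homeobox genes had 2 of 22 (9.09%), ceh-36 (X rank 217) and ceh-40 (274). The list of cuticle collagen genes, in which dpy-6 was also counted, had 2 of 31 (6.45%), col-173 (122) and col-165 (355). Muscle and mesoderm genes had 1 of 11 (9.09%), myo-2, the pharyngeal myosin heavy chain (440), and acetylcholine receptor subunits and their relatives 1 of 24 (4.17%), acr-10 (437). Of 5 vitellogenin genes, which encode yolk proteins, 1 had any region (20%, beside 70.3% of all protein-coding genes on X) and 0 had one among the 500 strongest. Of the 11 muscle and mesoderm genes, 10 had a region of any strength (90.9%), beside the same 70.3%. These 10 had a median best X rank of 3188.5, against 2133.5 over all genes with one. This group is a chosen list, and its share depends on the members. It leaves out the actin gene act-4, which had a region 103 bases past its start at X rank 75 (88 in replicate 1 and 871 in replicate 2).

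Transfer RNA genes lay next to a larger share of the strong regions on X than of equally strong regions on the autosomes, a comparison made after these data had been seen. X has 276 annotated tRNA genes and the autosomes 336, and 133 and 159 of them lay within 500 bases of a summit, 48.2% on X and 47.3% on the autosomes. At a signal value at least that of the 100th X region, 16.9, the counts were 11 of 276 on X (3.99%) and 3 of 336 on the autosomes (0.893%). Counted by region, 9 of the 100 strongest X regions (9%, 4.20 to 16.4) lay within 500 bases of a tRNA gene. Overlapping regions near the same tRNA genes were among them, so they stand for 7 places, and the interval does not allow for this. Among the 292 autosomal regions of that strength, 3 did (1.03%, 0.21 to 2.97), and among all regions the share was 2.14% on X and 0.657% on the autosomes. The highest were the him-4 intron region, with F15G9.t1 and F15G9.t2, and the xol-1 region, with C18A11.t2. Because tRNA genes have near-identical copies, reads at them may be split or dropped, which depends on the alignment. Of the 33 snoRNA genes on X, 0 were that close to such a region, against 12 of 313 on the autosomes (3.83%), and of the 74 miRNA genes on X 0 were, against 3 of 187 (1.60%). These counts are too small to tell X from the autosomes. For regions of any strength the shares on X and the autosomes were 42.4% and 47.9% for snoRNA genes. For miRNA genes they were 35.1% and 36.9%.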

How the data were processed

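UNC-39 was mapped in 2 samples of 1 group, so no test was made between samples. The deposited lists hold, per region, a signal value from the authors' peak caller and a −log10 q. Signal served for every rank, as the authors deposited it, and the deposited −log10 q, which has ties, for none. The sources used here name no aligner, peak caller or IDR threshold. Relaxed lists hold 30000 regions each, of 404 bases in replicate 1 and 400 otherwise. The optimal list has 63 peaks on ce11 and 53 on ce10, which served for counts.

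Regions were annotated at their summit with Ensembl 115 genes of WBcel235, the assembly of ce11. Named genes are those nearest the 25 strongest X regions or the 10 regions with GCGCAGG among the 100 strongest, and up to 4 per list. Other genes named only place a region or were chosen after their values were seen. MicroRNA names came from RefSeq. The 10 gene lists, 7 words and members were chosen with earlier results of these data known. The consensus, groups of neighbours, uniqueness, the comparison at equal signal and tRNA counts by region were added after seeing the data. Scripts were tested on simulated data. Intervals came from scipy 1.17.1, tables from pandas 2.3.3 and numpy 2.4.6 under Python 3.11.15, and plots from matplotlib 3.10.9.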

Additional observations from a re-analysis of the deposited data

How the results depend on the processing

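Values were called moved where they left the exact 95% interval of the value reported, or, for the log2 ratio and G+C content, differed by more than the SD of the 2 replicates; causes were not tested. No log2 ratio changed sign, but with replicate 2 alone the intergenic share, 38%, was below the 40.4% of all X regions. The X shares, the left part of X and the upstream share without a replicate stayed within that spread. Leaving out each replicate in turn gave a log2 signal ratio of 0.0190 to 0.0382, an intergenic share of 38% to 53% and a G+C content of 38.6% to 41%. The mean in place of the median gave a log2 ratio of 0.0312. Among optimal peaks on X, 76.2% were intergenic, 100% were matched in both replicates, 33.3% had GCGCAGG and the G+C content was 36.75%. Among the 500 strongest X regions 76% were matched and 3.40% had GCGCAGG. Requiring no base of the region in a gene gave 36% intergenic. Limits of 1000 and 2000 bases gave 39% and 57% near a start, and starts of all genes 45%. Intergenic regions alone were upstream in 80%. Summits within 100 bases matched in 74%. CGCGCA was in 18%, and GCGCAGG within 50 bases in 5%. The added consensus with at most 2 mismatches was in 11%. No paired analysis was possible because there was 1 group. Depth is unknown, so weak regions cannot be told from noise.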
